A study of Mus musculus with 3 samples.

Results

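Metallothioneins and enzymes of glutathione metabolism were described over 3 mouse cell populations by the probe sets of the array that are annotated to a single gene symbol among Mt1, Mt2, Gsta4, Gstm1, Gstm2, Gstt1, Gclc, Gclm, Gpx1 and Gpx4. All 10 genes were found, with 17 probe sets, out of 18193 genes with 34945 such probe sets. The genes were chosen by their signals in these same arrays, so their levels and their counts are a description and were not tested. There was 1 microarray per population and no replicate error, and no p-value is given. The arrays profiled embryonic stem (ES) cells of the B6N-22 line, B cells (splenic, B220) and T cells (splenic, CD4), all of the C57BL/6 strain. The ES cells had been cultured with leukemia inhibitory factor (LIF), fetal bovine serum, nonessential amino acids, sodium pyruvate and the thiol 2-mercaptoethanol, on mouse embryonic fibroblasts treated with mitomycin C as feeder cells. The lymphocytes, from animals 6 to 8 weeks old, were purified with magnetic beads to above 98% per the labels, and were taken for RNA without culture. The number of mice, and any removal of feeder cells before RNA isolation, is not stated in the sources used here.

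Metallothioneins are small cysteine-rich proteins that bind zinc and copper, and their genes are switched on by the metal-sensing factor MTF1. Glutathione is the main small thiol of cells. Glutamate-cysteine ligase makes its precursor in the rate-limiting step, glutathione S-transferases attach it to reactive molecules, and glutathione peroxidases use it to reduce peroxides. Several of these genes are targets of NRF2, a transcription factor that acts through antioxidant response elements.

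The promoters of Mt1, Mt2 and Gclm are shown because Mt1 and Mt2, neighbours on the chromosome, had a like pattern over the arrays, and because Gclm and Mt2 were the genes with a match to the antioxidant element. They are the 250 bases before the RefSeq start in GRCm38.p6, on the plus strand, at chr8:94178839-94179088, chr8:94172368-94172617 and chr3:122245307-122245556. Capitals mark matches to the cores of the metal response element (TGCACNC or TGCGCNC) and of the antioxidant response element (TGACNNNGC), searched on both strands.
Mt1: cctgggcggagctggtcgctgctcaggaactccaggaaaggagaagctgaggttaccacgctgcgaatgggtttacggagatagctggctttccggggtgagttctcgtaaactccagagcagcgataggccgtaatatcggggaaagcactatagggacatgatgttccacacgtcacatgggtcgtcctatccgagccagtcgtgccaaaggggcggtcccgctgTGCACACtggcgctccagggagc
Mt2: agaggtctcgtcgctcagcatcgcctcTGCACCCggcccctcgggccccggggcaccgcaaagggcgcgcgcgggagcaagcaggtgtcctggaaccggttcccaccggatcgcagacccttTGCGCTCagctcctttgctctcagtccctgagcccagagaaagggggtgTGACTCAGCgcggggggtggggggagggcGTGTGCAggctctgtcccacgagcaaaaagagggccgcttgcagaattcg
Gclm: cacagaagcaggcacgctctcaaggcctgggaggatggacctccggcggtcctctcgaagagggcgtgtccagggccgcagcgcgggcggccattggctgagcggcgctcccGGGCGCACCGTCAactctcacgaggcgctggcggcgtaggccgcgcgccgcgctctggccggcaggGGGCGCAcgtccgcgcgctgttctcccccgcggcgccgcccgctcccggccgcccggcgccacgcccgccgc

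RefSeq windows from 250 bases before to 50 bases after the start were found for 8 of the 10 genes, in 12 windows, and not for Gsta4 and Gclc. The Mt2 window had 4 matches to the metal element core, at -223 to -217, -128 to -122, -50 to -44 and 5 to 11, where -1 is the base before the start and 1 is the start. The Mt1 window had 3, at -23 to -17, 3 to 9 and 21 to 27, of which the last 2 lie after the start and are not in the printed bases. At least 1 such match was in 25.7% of all 32851 windows, at least 3 matches in 1.97% and at least 4 in 0.517%. Gclm also had 3 matches, all TGCGCNC, in a window of 79.7% G and C, and the shares of all windows were not matched for base content. Gstm1 had 1 in each of its 2 windows, which overlap, so that it is the same site. Gstt1 had 1. The antioxidant element core was in Mt2 at -79 to -71 and in Gclm at -134 to -126, where it overlaps a metal element core, and in 12.4% of all windows. TATAAA, the TATA box motif, was in 1 of the 2 Gstm1 windows, and in 13.6% of all windows. A match is a run of letters, not a bound site, and a RefSeq start need not be the start used in these cells.

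**Figure D1:**
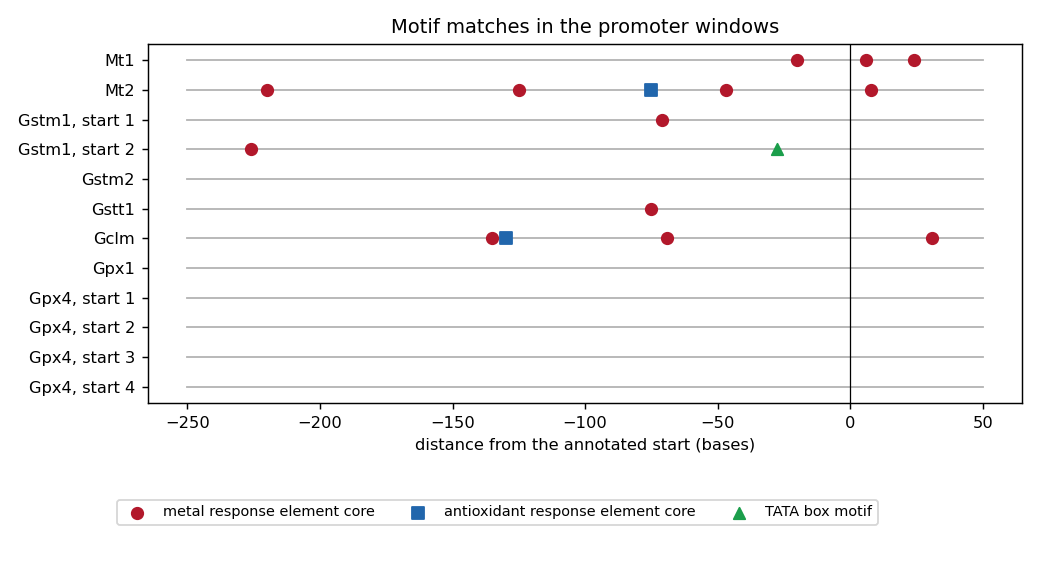
Position of motif matches (points, by kind) in the RefSeq promoter windows (grey lines) of 8 genes, with the distance from the annotated start in bases on the x axis and 1 row per window. Mt2 has 4 and Mt1 has 3 metal response element cores, and the 4 Gpx4 windows and the windows of Gpx1 and Gstm2 have none of the searched motifs.

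The values are linear probe set signals as deposited. The detection level was set at the median of all values, a signal of 95.0, because no detection call was used here. Signals under it have no order and were raised to it before folds were taken, so that a fold against such an array is a lower bound, written "at least". A gene was called different at 4-fold or more with the brighter array above that level, and was represented by the probe set of highest mean signal. Signals of a probe set were compared between arrays, and its level was not set against that of another probe set. The summed signals of marker lists are given only to compare the arrays. Of the 17 probe sets, 15 were brightest in ES, 2 in B and 0 in T cells. All 17 exceeded the detection level in ES cells, and 12 exceeded it in each lymphocyte array. Over all 18193 genes, with 1 probe set per gene, 60.3% exceeded it in ES, 57.8% in B and 56.8% in T cells. The genes were chosen by these signals, so nothing is read from these counts.

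**Figure D2:**
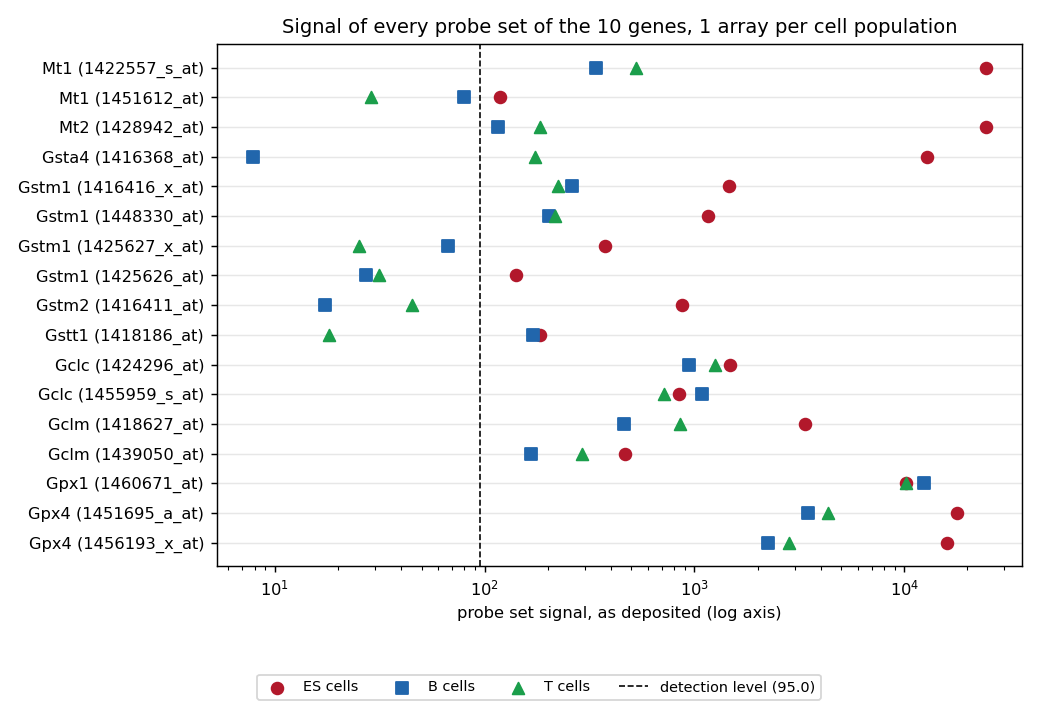
Signal (x axis, log scale) of all 17 probe sets of the 10 genes, with 1 point for each of the ES cell, B cell and T cell arrays and the detection level of 95.0 as a dashed line. The ES cell point lies far to the right for Mt1 (1422557_s_at), Mt2 and Gsta4, while the 3 points of Gpx1 and of both Gclc probe sets lie close together.

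Against ES cells, 6 of the 10 genes were lower by 4-fold or more in T cells and 7 were so in B cells, and 0 were higher in either. Among all genes, 10.2% of the 12325 measured were that much lower in T cells and 10.8% higher. For B cells 10.3% of 12463 were lower and 9.85% higher. These contrasts entered the choice of the genes, so nothing is read from the counts. The median log2 difference of the 10 genes was -2.37 for T cells and -2.67 for B cells, where that of all measured genes was -0.11 and -0.07. Both comparisons share the ES cell array. The 6 genes that were lower in T cells were all lower in B cells too, and Gclm was the further gene. Over all 18193 genes, a number that includes genes not measured, 1056 were lower in both. With arrays scaled to the 75th percentile the share of called genes that were higher was 38.6% in place of 51.5% for T cells and 37.4% in place of 48.8% for B cells. The medians of all genes were then -0.42 and -0.37, and the 10 genes lay at -2.34 and -2.65 relative to them on the log2 scale, against -2.26 and -2.60 as deposited.

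The 2 metallothionein genes and Gsta4 had the highest computed folds between ES cells and lymphocytes among the 10 genes, where bounds enter at their lowest value. Mt2 (1428942_at, its single probe set) had a signal of 24462 in ES, 115 in B and 184 in T cells. The lymphocyte values were near the detection level, and the ES cell value was far above it. Relative to ES cells, Mt2 was 133-fold lower in T cells and 212-fold lower in B cells. Ranks were taken only among the genes above the detection level in both arrays. There the Mt2 difference was number 4 from the lowest of 8972 for T cells and number 1 of 9017 for B cells. Genes below that level in the lymphocyte array have only bounds and were not ranked, and their differences can be larger. The ES cell marker Dppa5a, for example, was at least 493-fold lower in each lymphocyte array. Mt2 was chosen by these signals, so nothing is read from its rank.

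Mt1, the neighbouring gene for a closely related metal-binding protein, had a signal of 24381 in ES, 340 in B and 527 in T cells by probe set 1422557_s_at. It was 46.3-fold lower in T cells and 71.7-fold lower in B cells. The suffix _s_at marks probes that can match more than 1 transcript. The other Mt1 probe set, 1451612_at, was dim, at 118 in ES, 79.9 in B and 28.8 in T cells. By it Mt1 was at least 1.25-fold lower in each lymphocyte array, so the size of the Mt1 difference rests on 1 probe set.

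The other metallothionein genes were not called in either comparison. In RefSeq the genes lie in the order Mt4, Mt3, Mt2 and Mt1 on chromosome 8, with 0 other protein-coding genes between them. Mt3, the brain-enriched metallothionein, was below the detection level in all 3 arrays, at 69.9 in ES, 34.1 in B and 36.4 in T cells. Mt4, known from squamous epithelium, had a signal of 223 in ES, 79.6 in B and 30.4 in T cells, and was at least 2.35-fold lower in lymphocytes.

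Gsta4, a transferase that clears aldehydes of lipid peroxidation, was lower in T cells by a factor between those of Mt1 and Mt2, and its B cell value gives only a bound, which cannot be ranked. Its single probe set had a signal of 12859 in ES, 7.90 in B and 173 in T cells. The B cell value was below the detection level, and the T cell value was above it. Relative to ES cells, Gsta4 was 74.2-fold lower in T cells and lower by at least 135-fold in B cells.

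The mu-class transferases Gstm1 and Gstm2, which conjugate glutathione to electrophiles, were lower in lymphocytes by smaller factors. Gstm1 had a signal of 1455 in ES, 261 in B and 224 in T cells by its brightest probe set, 1416416_x_at. It was 6.51-fold lower in T cells and 5.58-fold lower in B cells. Probe set 1448330_at gave 1162, 203 and 215 in the same order, or 5.40-fold and 5.74-fold lower. All 4 Gstm1 probe sets were brightest in ES cells, but 2 were below the detection level in both lymphocyte arrays and gave bounds of 3.95-fold (1425627_x_at) and 1.48-fold (1425626_at). The suffix _x_at marks probe sets in which some probes can match other transcripts, such as those of the related mu-class genes.

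Gstm2 had a signal of 871 in ES, 17.4 in B and 45.0 in T cells. Both lymphocyte values were below the detection level, and Gstm2 was at least 9.17-fold lower in each. With a detection level set to the 65th percentile, a signal of 244.5, the bound was -1.83 on the log2 scale, below the size that was called. The 7 mu-class genes lie side by side on chromosome 3, with 0 other protein-coding genes between them. Besides Gstm1 and Gstm2, Gstm5 was at least 9.92-fold lower in both lymphocyte arrays and Gstm3 was 4.41-fold lower in T cells and 5.17-fold in B cells, though its other probe set was below the detection level in all arrays. Gstm4, Gstm6 and Gstm7 were not called. For Gstm6 both lymphocyte values were below the detection level, so its difference, at least 1.89-fold lower, is a bound that may be larger. Gstm7 was 1.45-fold higher in B cells by its brightest probe set, with the other at 0.00 on the log2 scale. Sequence shared among these genes limits how far their signals can be told apart.

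Gstt1, a theta-class transferase, was dim in all arrays. Its signal was 183 in ES, 170 in B and 18.1 in T cells. ES cells and B cells were within 2-fold of each other, and T cells were below the detection level. Relative to ES cells, Gstt1 was lower by at least 1.93-fold in T cells, and without a detection level, with 16 added to each value, the difference was -2.55 on the log2 scale and passed 4-fold.

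The 2 subunits of glutamate-cysteine ligase differed from each other in pattern. Gclc, the catalytic subunit, had a signal of 1477 in ES, 945 in B and 1255 in T cells by probe set 1424296_at. By probe set 1455959_s_at it had 847, 1084 and 719 in the same order. All differences were within 2-fold, and the probe sets placed B cells at opposite ends, at -0.64 and 0.36 on the log2 scale against ES cells.

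Gclm, the modifier subunit that raises the activity of the catalytic one, had a signal of 3378 in ES, 464 in B and 855 in T cells. It was 7.29-fold lower in B cells, and its 3.95-fold lower level in T cells was the value just outside the called size. With scaling to the 75th percentile the T cell difference was -2.36 on the log2 scale and passed it. By the dimmer probe set 1439050_at, with signals of 466, 166 and 292, Gclm was 1.60-fold lower in T cells and 2.81-fold lower in B cells. Both probe sets had the order ES cells, T cells, B cells.

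The 2 glutathione peroxidases also differed. Gpx1, the cytosolic selenoprotein that reduces hydrogen peroxide, had a signal of 10194 in ES, 12352 in B and 10169 in T cells. The arrays were within 1.21-fold of each other, with no order that could be told without replicates, and the sign of its difference against ES cells flipped with the scaling, from -0.38 to 0.35 on the log2 scale in T cells and from -0.07 to 0.58 in B cells.

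Gpx4, the selenoprotein that reduces lipid hydroperoxides in membranes and is known for restraining ferroptosis, had a signal of 17894 in ES, 3472 in B and 4347 in T cells by probe set 1451695_a_at. By probe set 1456193_x_at it had 15975, 2236 and 2815. Gpx4 was 4.12-fold lower in T cells, the value just inside the called size, and 5.15-fold lower in B cells, or 5.68-fold and 7.15-fold by the second probe set. With quantile normalization the T cell difference was -1.80 on the log2 scale and fell short of the called size.

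**Figure D3:**
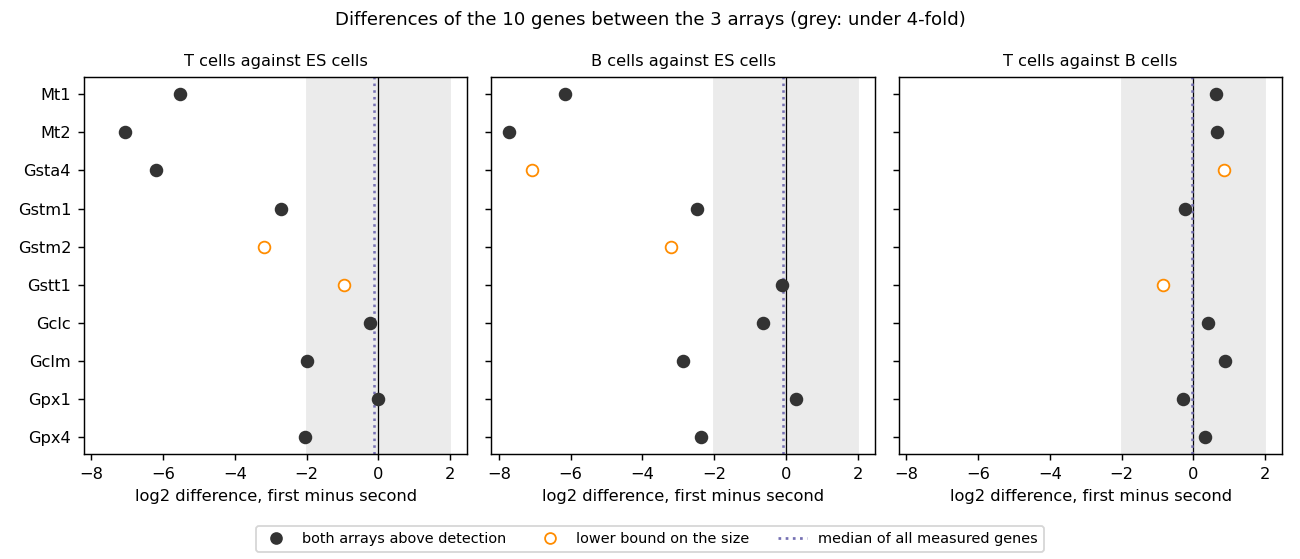
Log2 difference (x axis) of each of the 10 genes in the 3 comparisons, with filled points where both arrays were above the detection level, open points for bounds, a grey band for differences under 4-fold and a dotted line at the median of all measured genes. Mt2 is plotted farthest left against ES cells, at -7.06 for T cells and -7.73 for B cells, and for T cells against B cells all points lie in the grey band.

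Between T cells and B cells, 0 of the 9 measured genes reached 4-fold in either direction, where 2.49% of 11194 genes were that much higher in T cells and 1.85% lower. The computed folds of all 9 were under 2-fold, as were those of 84.8% of all measured genes. Of the 9, Gsta4 and Gstt1 were bounds, and their differences may be larger. Mt1 was 1.55-fold, Mt2 1.59-fold and Gclm 1.84-fold higher in T cells. Gsta4 was higher by at least 1.82-fold in T cells and Gstt1 by at least 1.79-fold in B cells, and without a detection level these were 2.98 and -2.44 on the log2 scale and passed 4-fold. Gstm2 was below the detection level in both. The size of these differences cannot be set against a spread between samples.

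Of 102 related genes in 8 lists, 95 had a probe set and 7 are not analysed here. In T cells against ES cells 10 of 83 measured were lower by 4-fold or more and 7 higher, at a median of -0.59 on the log2 scale. In B cells 16 of 82 were lower and 3 higher, with a median of -0.53. In T cells against B cells 0 of 75 were lower and 1 was higher, with a median of 0.17.

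Genes of metal handling and of NRF2 regulation were mostly within 4-fold of ES cells, as were most measured genes. Among all genes, 2584 of 12325 measured were called in T cells and 2516 of 12463 in B cells. Of 17 measured genes of metal sensing and transport 0 reached 4-fold in T cells, and of 16 in B cells 2 were lower and 0 higher, with medians of -0.28 and -0.02. The 2 were zinc importer genes, Slc39a4 at least 8.96-fold and Slc39a14 7.55-fold lower, the latter with another probe set below the detection level in both arrays. In T cells they were 3.92-fold and 3.49-fold lower by the same probe sets, short of the called size. Mtf1, which encodes the metal sensor, had a signal of 257 in ES, 542 in B and 404 in T cells, so by this probe set it was 2.11-fold higher in B cells and 1.57-fold in T cells. Its 5 probe sets ranged from 0.00 to 1.08 for B cells and from -0.38 to 0.65 for T cells on the log2 scale, so the direction in T cells depends on the probe set. Slc30a1, the zinc exporter gene that MTF1 also controls, had 500 in ES, 518 in B and 754 in T cells. Of 9 measured NRF2 pathway regulators 1 was higher and 0 lower in T cells, and 1 was higher and 1 lower in B cells, with medians of 0.48 and 0.08. Bach2, a repressor related to the NRF2 competitor Bach1 and a known lymphocyte factor, was 32.0-fold higher in T cells and 64.4-fold in B cells, with probe sets down to 1.26 and 2.13 on the log2 scale. Maff, a small MAF partner gene, was at least 4.06-fold lower in B cells and 3.29-fold lower in T cells. Nfe2l2, which encodes NRF2, had 2695 in ES, 1501 in B and 1995 in T cells by its brightest probe set, within 2-fold. Its dimmer probe set turned the direction, at 0.95 for T cells and 1.30 for B cells against ES cells on the log2 scale.

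Other genes of glutathione supply were mixed. Of 9 measured, 2 were lower and 1 higher in T cells and 3 lower and 0 higher in B cells, with medians of -0.98 and -1.12. Cth, which makes cysteine from cystathionine, was at least 25.4-fold lower in both, and Chac1, which degrades glutathione, at least 4.11-fold lower in both. Gsr, the reductase that regenerates glutathione, was 5.07-fold lower in B cells. Ggt5 was 6.39-fold higher in T cells, with a probe set as low as 1.05 on the log2 scale.

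Other transferases lay on both sides. Of 17 measured, 2 were lower and 2 higher in T cells, with a median of -0.27, and of 16 in B cells 4 were lower and 1 higher, with a median of -0.44. Besides the mu-class genes, Gsto1 was 6.30-fold lower in B cells. Mgst2, a microsomal transferase that also makes leukotriene C, had a signal of 89.4 in ES, 1207 in B and 3056 in T cells, which put T cells higher by at least 32.2-fold and B cells by at least 12.7-fold. Gstp3 in T cells was at least 10.6-fold above both ES cells and B cells, the 1 related gene to reach 4-fold between the lymphocytes. Gstp1, the pi-class transferase, was within 2-fold in all arrays, at 10221 in ES, 8101 in B and 9220 in T cells.

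Of the other peroxidases and glutaredoxins, 3 of 8 measured were lower and 1 higher in T cells and 3 of 9 lower and 0 higher in B cells, with medians of -1.25 and -0.82. Gpx8, a peroxidase of the endoplasmic reticulum, was at least 13.8-fold lower in both. Gpx7, of the same compartment, was 6.09-fold lower in T cells and 4.97-fold in B cells, the bound of the plasma peroxidase Gpx3 just reached 4-fold in both, and Glrx was 5.03-fold higher in T cells.

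Of 15 measured thioredoxins, peroxiredoxins and other antioxidant enzymes, 3 were lower and 2 higher in T cells and 3 lower and 1 higher in B cells, with medians of -1.30 and -1.47. The NRF2 targets Srxn1 and Nqo1 were lower by 9.93-fold and at least 5.34-fold in T cells, and by at least 11.7-fold and at least 5.34-fold in B cells, while another Srxn1 probe set was below the detection level throughout. Txnrd1, the cytosolic thioredoxin reductase, was 4.32-fold lower in T cells and 5.63-fold lower in B cells, also with a probe set below the detection level throughout. Txnip, the thioredoxin inhibitor, was 5.17-fold higher in T cells and 4.04-fold in B cells. Hmox1, the heme-degrading enzyme that splenic macrophages use, had a signal of 1177 in ES, 2640 in B and 6474 in T cells and was 5.50-fold higher in T cells, relative to ES cells. Of 7 measured genes of selenoprotein synthesis, on which Gpx1 and Gpx4 depend, 0 reached 4-fold in either lymphocyte, with medians of -0.58 and -0.56.

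**Figure D4:**
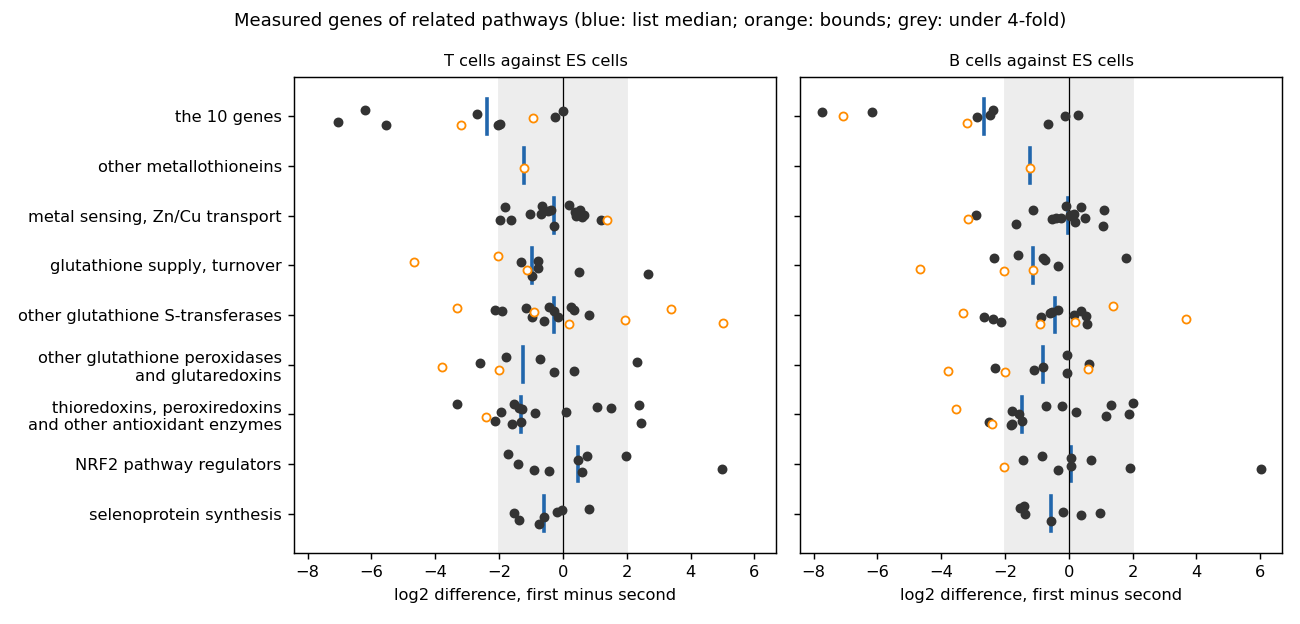
Log2 difference against ES cells (x axis) of the measured genes of the 10-gene set and of 8 related lists (rows), in T cells and B cells, with filled points where both arrays were above the detection level, orange open points for bounds, blue bars for list medians and a grey band for differences under 4-fold. The medians of the related lists lie between -1.47 and 0.48, and that of the 10 genes at -2.37 and -2.67. The 10 genes were chosen by these signals, so nothing is read from that gap. The list of other metallothioneins has 1 measured gene, a bound.

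Markers of other cells moved with the arrays. All 12 fibroblast markers were above the detection level in the ES cell array, 3 in B cells and 2 in T cells, with summed signals of 82281, 756 and 7713, of which Thy1, also a T cell gene, was 7185 in T cells. Metallothioneins and Gsta4 were high in that array too, and the part of feeder fibroblasts in their signals was not tested. The 6 ES cell markers summed to 91642 in the ES cell array, where all were detected, and none was above the detection level in lymphocytes. Macrophage markers were above it for 7 of 11 in ES cells and 11 of 11 in both lymphocyte arrays, with summed signals of 4049 in ES, 27912 in B and 67445 in T cells. Of the 7 related genes called higher in T cells than in ES cells, Hmox1, Mgst2, Ggt5, Glrx and Txnip had the same order of the arrays. Bach2 was brightest in B cells, and Gstp3 was below the detection level in ES and B cells. Some of these steps cannot be ordered without replicates. T and B cells differed by 1.28-fold for Txnip and 1.84-fold for Ggt5, and B and ES cells by 1.56-fold for Glrx. The part of macrophages in the signals of these 7 genes was not tested. Of 5 erythroid markers with a probe set, 2 were above the detection level in each array, and the summed signals were 287 in ES, 587 in B and 635 in T cells. The 4 B cell markers were all detected in B cells and 3 in T cells, with sums of 69604 in B and 3581 in T cells. The 6 T cell markers were all detected in T cells and 5 in B cells, with sums of 63166 in T and 994 in B cells. Whether the RNAs were mixed was not tested, and in a mixed RNA fewer cells of a type and less RNA per cell cannot be told apart.

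**Figure D5:**
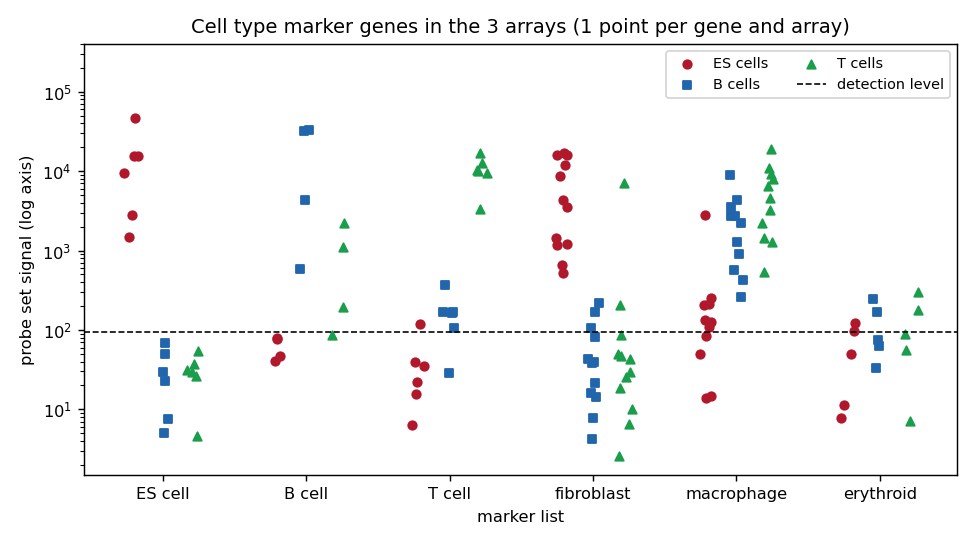
Signal (y axis, log scale) of marker genes of 6 cell types (x axis) in the ES cell, B cell and T cell arrays, 1 point per gene and array, with the detection level as a dashed line. All 12 fibroblast markers lie above the line in ES cells, and all 11 macrophage markers lie above it in both lymphocyte arrays.

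Genes outside the set with the pattern closest to Mt1, Mt2 and Gsta4 were ranked by the Euclidean distance of log2 signals, raised to the detection level and centred on the gene, over the 3 arrays. For Mt1 they were Tceal8 at 0.25, the receptor phosphatase gene Ptprf at 0.29 and the corepressor gene Ctbp2 at 0.36. For Mt2 they were Col1a2 at 0.47, the Nodal co-receptor gene Tdgf1 at 0.48 and the Oct4 gene Pou5f1 at 0.48, all 3 below the detection level in both lymphocyte arrays. For Gsta4 they were the actin-binding gene Cttn at 0.45, Ctbp2 at 0.52 and Fkbp9 at 0.56. Tceal8, Ptprf, Cttn and Fkbp9 were below the detection level in B cells. Fibroblast and pluripotency genes were thus both among the nearest of Mt2. With 3 arrays a short distance says only that ES cells were far above both lymphocytes. The factors compared are those after signals were raised to the detection level, and for genes below it they are bounds that may differ in size.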

How the data were processed

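Total RNA of 3 samples was labelled with biotin and hybridised to 1 array each. The authors deposited linear intensity values of 45037 probe sets. Affymetrix Expression Console is the one tool listed, per the submitters' processing notes. Its version, its summarization and its scaling target are not stated in the sources used here. The deposited columns had trimmed means (2% off each end) of 497 to 498, medians of 88.8 to 101.8 and highest signals of 43544 to 58060. Values that share a mean cannot show a change in total mRNA per cell. Symbols came from GEO's platform annotation, of which 34741 of 34945 Entrez IDs were found in RefSeq GRCm38.p6 and 0 symbols changed. A further 932 probe sets with several symbols and 9160 with none were not used for genes, and 0 of the former name one of the 10 genes. Promoter sequences are RefSeq's.

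Folds were computed with Python 3.11.15, numpy 2.4.6 and pandas 2.3.3, and the calling code was tested on simulated data. The simulated arrays had no noise and only bright genes were changed. That test checks the code, and says nothing on calls near the detection level. With 1 array per group no test was possible, no difference has a replicate check, and the number of arrays limits the precision. The 10 genes, the related lists and the markers were chosen with earlier results of these data known. The text names the 10 genes, up to 4 genes per related list and comparison with the greatest difference of at least 4-fold, and the 3 nearest patterns of Mt1, Mt2 and Gsta4. Mtf1, Slc30a1, Nfe2l2, Gstp1, the other metallothionein genes, Gstm4, Gstm6, Gstm7 and the markers were named after their values were seen. Alternatives were 2 other scalings, 16 added in place of a detection level, a level at the 65th percentile, the median over probe sets, and a call only where every probe set passed.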

Additional observations from a re-analysis of the deposited data

How the results depend on the processing

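No paired analysis was possible because each population has 1 array. Leaving out a replicate was likewise not possible. Where every probe set of a gene had to pass, 4 of the 10 genes in place of 7 were called lower in B cells relative to ES cells, and 4 in place of 6 in T cells. These were Mt2, Gsta4, Gstm2 and Gpx4 in both. Under that setting a gene counts by its probe set of smallest difference. The median of the 10 genes relative to that of all genes was then -0.81 in T cells and -1.03 in B cells on the log2 scale, against -2.26 and -2.60 as reported. Without a detection level, 1 gene (Gsta4) in place of 0 was called higher and 1 (Gstt1) in place of 0 lower in T cells than in B cells. The other counts of the 10 genes stayed within 1.5 times of those reported. Of 30 single differences, 30 kept their side of the 4-fold size with the median over probe sets, 29 with each other scaling, 28 with a detection level set to the 65th percentile, 27 without a level and 25 with every probe set; 0 that passed it reversed. Mt2 against ES cells ranged from -7.43 to -6.64 on the log2 scale in T cells and from -8.08 to -6.64 in B cells. Over all genes, 784 in place of 1252 were called lower in T cells and 799 in place of 1289 in B cells, relative to ES cells, at the 65th percentile, and 664 and 679 with every probe set. With every probe set 770 in place of 1332 were higher in T cells and 739 in place of 1227 in B cells. Between T and B cells 166 and 151 in place of 279 were higher under these settings. Signals near the detection level, as for Gstt1 and the dimmer Mt1 and Gstm1 probe sets, limit what can be ordered.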
